A study of Mus musculus with 6 samples.

Results

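The protein kinase C family in the mouse hippocampus is described here through 7 genes: Prkca, Prkcb, Prkcd, Prkce, Prkch, Prkci and Prkcz. Every probe set that the array's annotation gives to exactly 1 of these genes was taken, which gave 19 of the 45101 probe sets. The other PKC genes are not members here. Total RNA of the whole hippocampus was measured on 6 arrays of 1 colour. The wild-type group has 3 arrays, and the knockout group has 3 from animals without inhibitor-1, the product of Ppp1r1a, which inhibits protein phosphatase 1. Age, sex, strain, treatment and targeting design are in no label of either group. Nothing says that the arrays come from separate animals, so the p-values cover only a spread between samples that may be technical. The question put to the arrays is which RNAs of this tissue are altered by the loss of the inhibitor. In bulk tissue, fewer cells of a type and less RNA per cell cannot be told apart.

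Protein kinase C enzymes are serine/threonine kinases that act downstream of receptors coupled to Gq and phospholipase C. The conventional isoforms need calcium and diacylglycerol, a further class needs diacylglycerol without calcium, and the atypical isoforms need neither. In hippocampal neurons they are studied for synaptic potentiation, transmitter release and the phosphorylation of glutamate receptors and growth-associated proteins, and their phosphorylation of substrates is opposed by phosphatases that include protein phosphatase 1.

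The labels were checked first on Ppp1r1a. Its probe set 1422605_at read 9061, 8370 and 10345 in wild type and 272.5, 248.5 and 347.2 in knockout, a log2 change of -4.93 (limma, SE 0.18, adjusted p = 3.52e-07). All 11 hippocampal pyramidal neuron markers and all 9 dentate granule neuron markers passed the filter on dim probe sets, with Wfs1 of CA1 neurons at 11395 to 12861 over the 6 arrays. The median intensity was lowest on replicate 1 in both groups, at 573.8 (wild type) and 541.5 (knockout), against 620.9 to 666.0 on the other arrays. Of 12 choroid plexus and ependymal markers tested, 10 had a change above 0, with a median log2 change of 0.58 and 3 at an unadjusted p under 0.05. Their mean log2 level was 11.06, 11.97 and 11.97 in wild type, and 11.67, 12.43 and 12.31 in knockout. Their summed intensity, 202534 to 286700 in wild type against 226432 to 277254 in knockout, is mostly that of Ttr, which had a log2 change of -0.019. All 12 meningeal markers had a change above 0 (median 0.42, 4 at an unadjusted p under 0.05), with a summed intensity of 42174 to 49332 in wild type against 47953 to 67027 in knockout. Of 11 oligodendrocyte markers, 8 had a change below 0 (median -0.13, 3 at an unadjusted p under 0.05), and their summed intensity did not overlap, at 350205 to 376439 in wild type against 322987 to 338847 in knockout. That of 10 astrocyte markers did not overlap either, at 302139 to 315042 in wild type against 319935 to 325524 in knockout. Of the 10 astrocyte changes, 7 were above 0 (median 0.085). These sums weigh the brightest markers most, such as Mbp and Aldoc, and the mean log2 levels of both lists did overlap. For oligodendrocyte markers, knockout replicate 3 (13.814) lay above wild-type replicates 2 (13.812) and 3 (13.803). For astrocyte markers, knockout replicate 2 (14.12) lay below wild-type replicate 1 (14.14). With a gene's probe sets averaged, the median change was -0.16 for oligodendrocyte and 0.018 for astrocyte markers. The part of these marker shifts in the values below was not tested.

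No PKC probe set passed the threshold between the genotypes. Of the 19 probe sets, 18 passed the filter on dim probe sets and were tested, and 0 had a limma adjusted p under 0.05, where 0.0111% of the 27022 probe sets tested were called. At an unadjusted p under 0.05 the members held 0 probe sets, beside 4.34% of all those tested. Of the 18 changes, 8 were above 0 and 10 below, from -0.32 to 0.19 on the log2 scale with a median of -0.0041, against a median of 0.0040 over all probe sets tested. The median size of a change regardless of sign was 0.077 for PKC probe sets and 0.12 for all. Their median SE was smaller too, at 0.10 for PKC probe sets and 0.18 for all. The adjusted p-values ran from 0.986 to 0.999 (limma). The intervals of the change, given below for each gene, were narrow for bright probe sets and wide for dim ones. None of the 7 genes lies on chromosome 15, which carries Ppp1r1a.

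**Figure D1:**
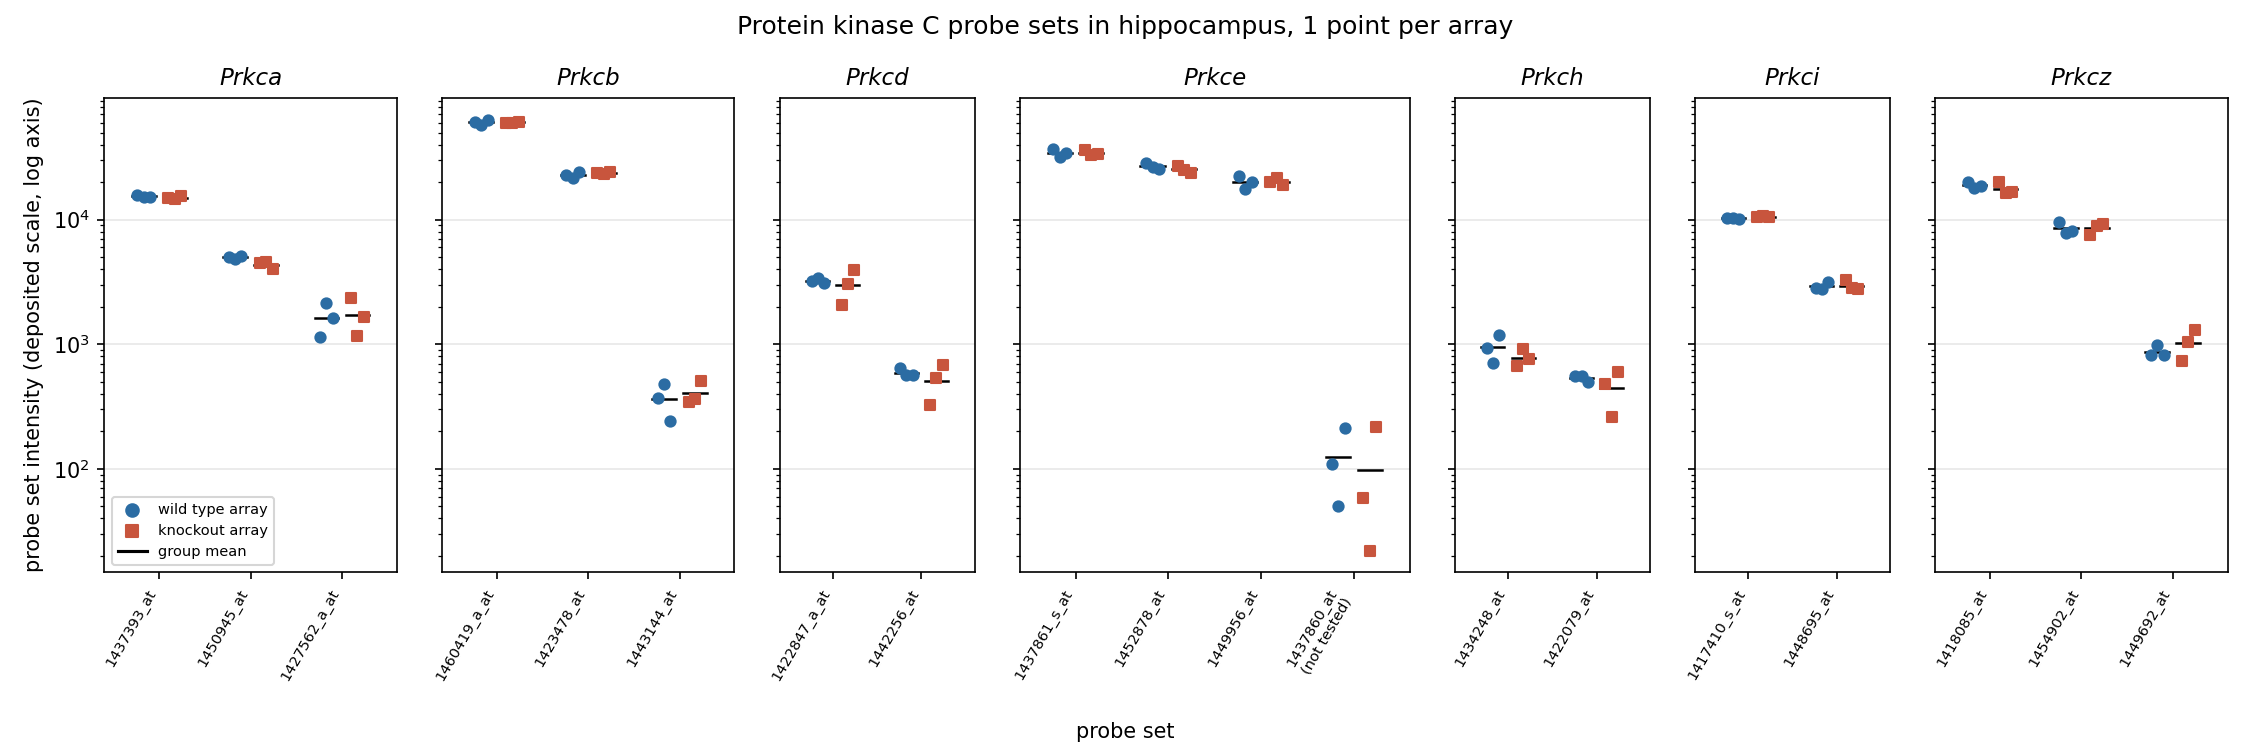
Intensity (log axis, deposited scale) of the 19 probe sets of 7 protein kinase C genes, with 1 point per array, wild type as circles, knockout as squares and a bar for each group mean. The groups do not overlap for Prkca 1450945_at and Prkci 1417410_s_at. Heights of different probe sets are not comparable, since each binds its own target with its own strength.

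Among the conventional isoforms, Prkcb encodes PKC beta, whose splice forms beta I and beta II differ at the C terminus. Its leading probe set, meaning the tested one with the highest mean, was 1460419_a_at, which read 60731, 57830 and 63529 in wild type and 60038, 60113 and 61190 in knockout. All 3 knockout values lay inside the wild-type range. The log2 change was -0.0049 (SE 0.061, 95% interval -0.14 to 0.13, limma adjusted p = 0.998), so knockout levels outside 0.909 to 1.09 of wild type lie beyond this interval. The second Prkcb probe set, 1423478_at, read 22779, 21551 and 24327 in wild type and 23720, 23341 and 24135 in knockout. Its log2 change was 0.054 (95% interval -0.10 to 0.21). Both bright Prkcb probe sets had the knockout arrays inside the wild-type range, with a coefficient of variation of 4.69% and 6.08% in wild type and 1.07% and 1.67% in knockout. The third, 1443144_at, was dim, at 240.6 to 478.5 in wild type against 342.5 to 511.3 in knockout, and its interval of -0.73 to 1.10 holds a doubling.

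Prkca encodes PKC alpha, the other conventional isoform described here, and its 3 probe sets did not run alike. The leading one, 1437393_at, read 15904, 15078 and 15209 in wild type and 14944, 14631 and 15510 in knockout. These groups overlap, and the log2 change was -0.035 (SE 0.071, 95% interval -0.19 to 0.12, limma adjusted p = 0.997). The probe set 1450945_at read 5050, 4828 and 5098 in wild type and 4464, 4592 and 3985 in knockout. Here every knockout array lay under every wild-type array, with means of 4992 ± 144 (SD, n = 3) and 4347 ± 320 (SD, n = 3). The log2 change of -0.20 (SE 0.10, 95% interval -0.43 to 0.023) had the smallest p among the 18 probe sets, 0.0736 before adjustment and 0.986 after it (limma), and ranked 1825 of the 27022. The change had the same sign in all 18 alternatives run and ranged from -0.24 to -0.14. The third probe set, 1427562_a_at, ranged from 1140 to 2157 in wild type against 1173 to 2370 in knockout, with a log2 change of 0.070 (95% interval -0.54 to 0.68). It had the same sign in 14 of 18 alternatives and ran from -0.42 without replicate 1 of both groups to 0.32 without knockout replicate 2. The separation seen at 1450945_at was thus not seen at either other Prkca probe set. That probe set and 1437393_at had a Pearson r of 0.11 over the 6 arrays, a description of 6 points.

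Groups without overlap were about as frequent among PKC probe sets as elsewhere. They numbered 2 of 18, or 11.1%, against 9.85% of all probe sets tested. Beside Prkca 1450945_at, the other was 1417410_s_at, the leading probe set of Prkci. Prkci encodes PKC iota, an atypical isoform that works with the Par3 and Par6 polarity proteins. It read 10305, 10395 and 10067 in wild type and 10516, 10692 and 10557 in knockout. All knockout values lay above all wild-type values, yet by little: the log2 change was 0.046 (SE 0.074, 95% interval -0.12 to 0.21, limma adjusted p = 0.99). The spread within groups was narrow, at 1.65% of the mean in wild type and 0.872% in knockout, and the SE is larger than these values alone would give because limma draws it toward that of probe sets of like intensity. The second Prkci probe set, 1448695_at, overlapped, at 2767 to 3179 in wild type against 2763 to 3308 in knockout (log2 change 0.017, 95% interval -0.27 to 0.30).

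**Figure D2:**
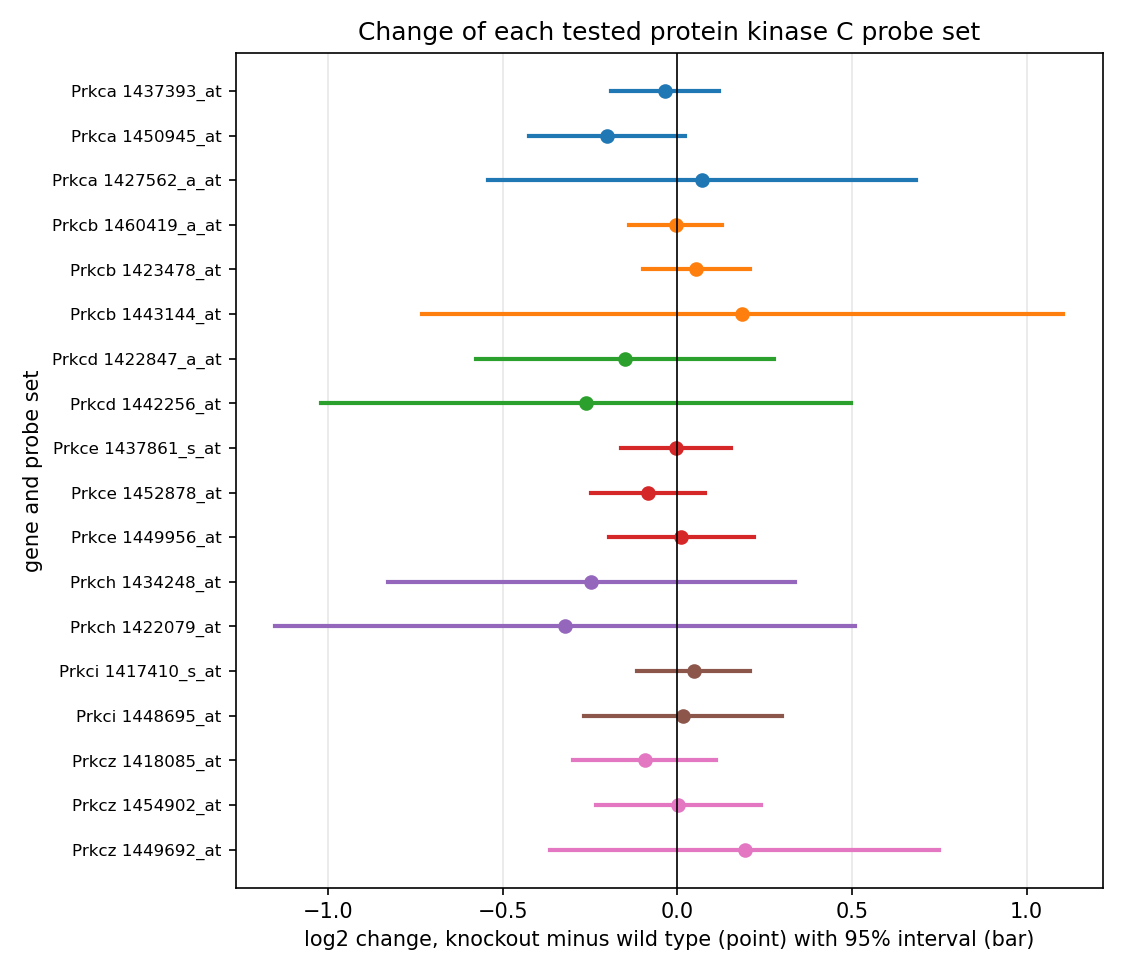
Log2 change (knockout minus wild type) of the 18 tested probe sets as points, with limma's 95% interval as bars and 1 colour per gene. Every interval includes 0; the narrowest is that of Prkcb 1460419_a_at (-0.14 to 0.13) and the widest that of Prkcb 1443144_at (-0.73 to 1.10).

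Prkcz encodes PKC zeta, the other atypical isoform. The gene is known for PKM zeta, a brain form without the regulatory domain that is made from a start inside the gene and has been studied in the maintenance of synaptic potentiation and memory. RefSeq's start table of build GRCm38.p6 holds 8 starts for 5 of the 7 genes, and 3 of the 8 belong to Prkcz: the second lies 15639 bases and the third 16679 bases inside the gene from the first. No source used here says which of these starts makes PKM zeta. The 250 bases before each start and the start base itself are shown. A gene with several starts can make several RNAs, and the part of this in the Prkcz values was not tested. Each is read 5′ to 3′ on the minus strand, and capitals mark GGGCGG, the GC box, and TGACG, one side of the cAMP response element, on either strand.
Prkcz start 1, chr4:155361428-155361678: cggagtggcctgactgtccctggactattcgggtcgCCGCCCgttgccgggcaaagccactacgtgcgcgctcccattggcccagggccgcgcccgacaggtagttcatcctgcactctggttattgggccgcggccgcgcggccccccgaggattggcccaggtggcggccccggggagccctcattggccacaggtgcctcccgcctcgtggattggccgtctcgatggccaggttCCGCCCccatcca
Prkcz start 2, chr4:155345789-155346039: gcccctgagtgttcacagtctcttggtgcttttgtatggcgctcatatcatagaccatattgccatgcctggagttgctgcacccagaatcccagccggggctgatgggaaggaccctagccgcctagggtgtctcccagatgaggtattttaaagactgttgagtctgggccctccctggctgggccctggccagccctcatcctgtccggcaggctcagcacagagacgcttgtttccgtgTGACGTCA
Prkcz start 3, chr4:155344749-155344999: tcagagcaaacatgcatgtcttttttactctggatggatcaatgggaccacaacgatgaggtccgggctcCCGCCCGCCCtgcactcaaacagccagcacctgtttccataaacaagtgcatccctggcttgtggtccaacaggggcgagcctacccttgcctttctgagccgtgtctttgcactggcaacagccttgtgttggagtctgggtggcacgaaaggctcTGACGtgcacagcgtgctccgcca
The window of the second start ends in TGACGTCA, the whole palindromic cAMP response element, which runs up to the start base. This whole element was in 1 of the 8 PKC windows and in 1.6% of the 32851 windows of the same length over all genes. One side alone, TGACG on either strand, was in 2 of the 8, both of Prkcz, and in 18.1% of all windows; each match of the whole element is also counted there. GC boxes (GGGCGG on either strand) were at Prkcz starts 1 and 3 and in 32.8% of all windows. They were also in the windows of Prkca, Prkcb and Prkci and at Prkcd start 1. Prkcz start 1 also held 5 matches to CCAAT, on either strand, which was in 33.9% of all windows. These are matches of letters. No source used here says which of the starts each probe set reads.

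The leading Prkcz probe set, 1418085_at, read 20100, 17837 and 18629 in wild type and 20217, 16427 and 16533 in knockout. Knockout replicate 1 was the highest array of all 6, and the other 2 knockout arrays were the lowest. The log2 change was -0.094 (SE 0.093, 95% interval -0.30 to 0.11, limma adjusted p = 0.986). Without knockout replicate 1 it was -0.19, with an unadjusted p of 0.0329 and an adjusted p of 0.425 (limma), the smallest unadjusted p of any PKC probe set under any alternative. The probe set 1454902_at read 9484, 7875 and 8116 in wild type and 7484, 8864 and 9191 in knockout. Here knockout replicate 1 was the lowest array of all 6. The log2 change was 0.0028 (SE 0.11, 95% interval -0.23 to 0.24). The third, 1449692_at, was lowest in knockout replicate 1 too (739.6) and highest in knockout replicates 2 and 3 (1040 and 1290), against 815.4 to 988.1 in wild type. Its log2 change was 0.19 (95% interval -0.36 to 0.75). Over the 6 arrays, 1449692_at had a Pearson r of -0.90 with 1418085_at and of 0.48 with 1454902_at. A mean of log2 levels over Prkcz probe sets therefore joins probe sets at which the same arrays move in opposite directions. The r of -0.90 involves a dim probe set: 1418085_at read 12.8 to 27.3 times as high as 1449692_at. Replicate 1 of the knockout is also the array with the lowest median intensity, and the part of this in the Prkcz values was not tested.

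**Figure D3:**
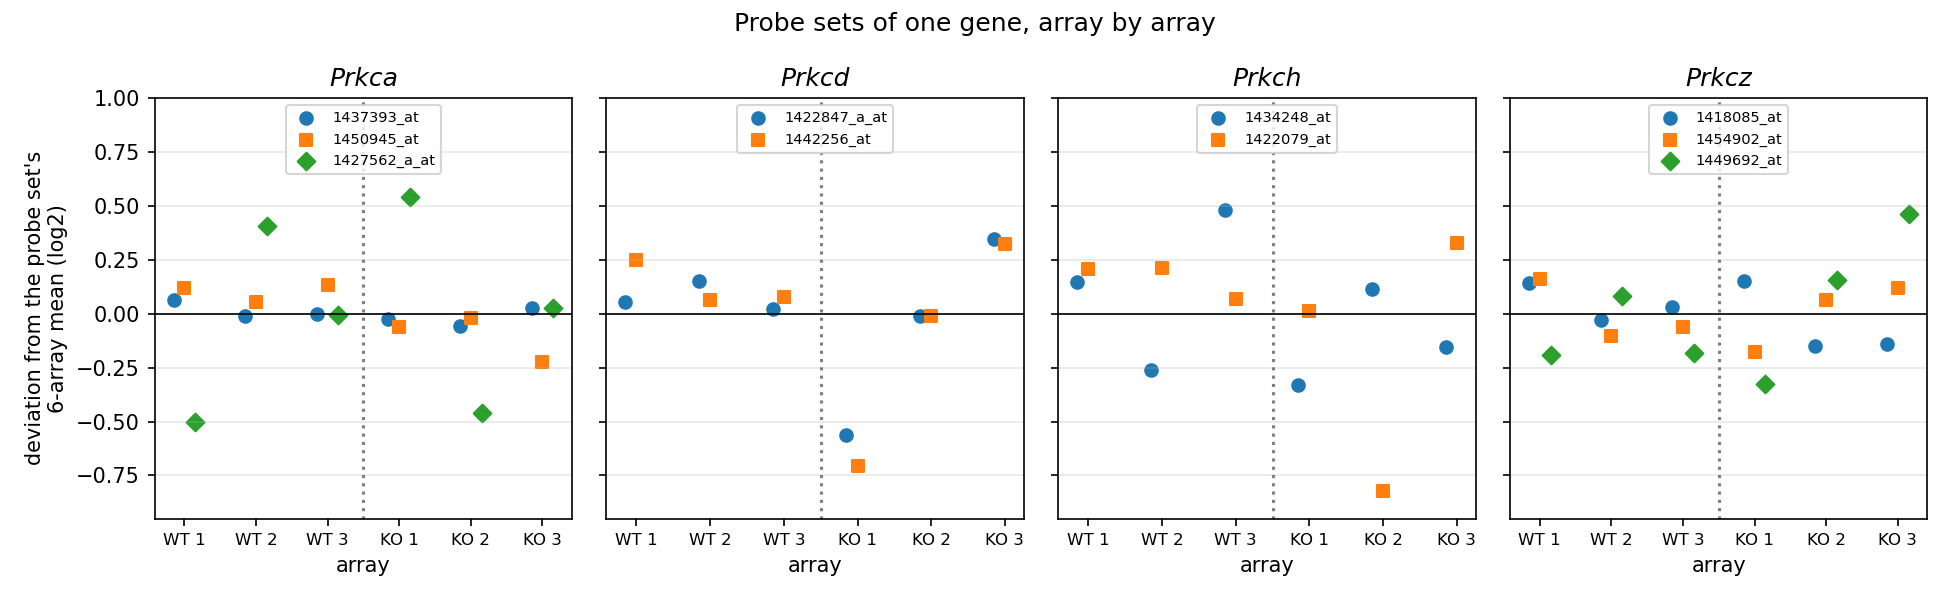
Deviation of each tested probe set from its own mean over the 6 arrays (log2), by array, for 4 genes; WT is wild type, KO is knockout, and each symbol is 1 probe set. The 2 Prkcd probe sets follow each other with a low point in knockout replicate 1, while those of Prkca, Prkch and Prkcz scatter in different directions.

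The isoforms that need diacylglycerol without calcium are Prkcd, Prkce and Prkch. Prkce, which encodes PKC epsilon, an isoform enriched in brain and found at presynaptic sites, had 4 probe sets. The leading one, 1437861_s_at, read 36621, 31997 and 34282 in wild type and 35980, 33219 and 33387 in knockout. All knockout values lay inside the wild-type range, with a log2 change of -0.0032 (SE 0.072, 95% interval -0.16 to 0.15, limma adjusted p = 0.999). The probe sets 1452878_at (25582 to 28228 in wild type, 23658 to 27132 in knockout) and 1449956_at (17662 to 22530 and 18920 to 21658) overlapped as well. Their log2 changes were -0.084 (95% interval -0.25 to 0.080) and 0.011 (95% interval -0.20 to 0.22). These 3 bright probe sets had Pearson r of 0.33 to 0.67 with each other. The fourth, 1437860_at, had intensities of 22.1 to 215.0, fell under the filter and was not tested. The annotation names it and 1437861_s_at by the same transcript accession.

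Prkcd encodes PKC delta, which in the forebrain is known for its strong expression in the thalamus. Its leading probe set, 1422847_a_at, read 3194, 3411 and 3119 in wild type and 2077, 3054 and 3908 in knockout. The knockout group held both the lowest and the highest array of all 6, and its SD of 916 compares with 152 in wild type (n = 3 each). The log2 change was -0.15 (SE 0.19, 95% interval -0.58 to 0.28, limma adjusted p = 0.989). The other probe set, 1442256_at, read 641.6, 563.2 and 568.3 in wild type and 323.3, 533.7 and 676.8 in knockout, with a log2 change of -0.26 (95% interval -1.02 to 0.50). Both put knockout replicate 1 lowest and knockout replicate 3 highest (Pearson r of 0.96 over the 6 arrays), so the spread among knockout arrays was alike at both. Leaving out knockout replicate 1 turned the sign at both, to 0.093 at 1422847_a_at and 0.026 at 1442256_at, and without knockout replicate 3 the changes were -0.36 and -0.49. Of 14 thalamus and habenula markers, 11 passed the filter, and Slitrk6, Gbx2 and Gpr151 did not. The mean log2 level of the 11 was 11.02 to 11.16 in wild type and 10.99, 11.08 and 11.08 in knockout replicates 1, 2 and 3, and their summed intensity was 31133 to 33494 in wild type against 30733 to 35504 in knockout. In that list Zic1 varied widely, at 2092 in knockout replicate 1 against 2545 to 5561 on the other arrays. Rgs16 of the same list went the other way, highest in knockout replicate 1 at 1244 against 611.8 to 1178 on the other arrays. The endothelial and mural markers were also lowest in knockout replicate 1, at 10.75 against 10.89 to 11.30 on the other arrays. So were the pyramidal neuron markers, at 12.49 against 12.52 to 12.58. Other lists were highest in knockout replicate 1: striatum markers at 11.14 against 10.59 to 10.95, neocortex markers at 12.67 against 12.25 to 12.51, and interneuron markers at 13.37 against 13.23 to 13.33. The part of these lists in the Prkcd values was not tested.

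Prkch encodes PKC eta and was dim. Its leading probe set, 1434248_at, read 938.8, 702.4 and 1187 in wild type and 669.3, 915.7 and 758.9 in knockout. The groups overlapped, with a log2 change of -0.25 (SE 0.26, 95% interval -0.83 to 0.34, limma adjusted p = 0.986). The probe set 1422079_at read 552.0, 554.3 and 499.5 in wild type and 480.4, 262.5 and 602.5 in knockout, with a log2 change of -0.32 (95% interval -1.15 to 0.51). That change was 0.0088 without knockout replicate 2 and -0.57 without knockout replicate 3. Knockout replicate 2 stood low at this probe set but was the highest knockout array at the other, and the Pearson r between them was -0.22 over 6 arrays. The interval of 1422079_at runs from 0.45-fold to 1.42-fold of wild type and so holds both lower and higher knockout levels.

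With the tested probe sets of a gene averaged, the groups overlapped for all 7 genes. The difference of mean log2 levels, knockout minus wild type, was -0.055 for Prkca, 0.078 for Prkcb, -0.21 for Prkcd, -0.025 for Prkce, -0.28 for Prkch, 0.031 for Prkci and 0.034 for Prkcz. For Prkch the levels were 9.49 ± 0.15 in wild type and 9.21 ± 0.22 in knockout (SD, n = 3), and the two-sided exact permutation p was 0.2, the smallest of the 7. The other exact p-values ran from 0.5 to 0.9, and all 7 were 0.9 after Benjamini-Hochberg adjustment. With 20 arrangements of 3 against 3 arrays the smallest p possible is 0.1, so this test cannot pass 0.05. Of 15 pairs of probe sets of the same gene, 7 had changes of the same sign and 7 had a Pearson r above 0 over the 6 arrays, from -0.90 to 0.96. The bright pair of Prkcb (r of 0.85) and the Prkcd pair (0.96) ran together most closely.

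For each leading probe set, the 2 probe sets of other genes with the highest Pearson r over the 6 arrays were listed as a description. They were Nr3c1 and Alkbh8 for Prkca (r of 0.991 and 0.989), Abce1 and Dyrk2 for Prkcb (0.995 and 0.992), and Ppic and Scyl2 for Prkcd (0.999 and 0.996). For Prkce they were Arap2 and Sstr4, a somatostatin receptor (0.995 and 0.989), and for Prkch Garre1 and Ambra1 (0.994 and 0.992). For Prkci they were Bend6 and Abcg2, a transporter of the blood-brain barrier (0.993 and 0.992), and for Prkcz Eif1ad and Aldh1l1, an astrocyte enzyme (0.994 and 0.992). With 6 points and 23122 candidate probe sets, the highest r of a search is apt to be near 1 by selection. At the looser level of an r above 0.9, a given leading probe set had 97 to 298 candidates. Ppic, picked for its likeness to Prkcd on these same arrays, read 345.4, 529.2 and 679.6 in knockout replicates 1, 2 and 3.

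The genes around the kinases were read from 7 lists. Of 92 genes listed, 77 were tested at their brightest probe set, 42 had a change above 0 and 35 below, with a median log2 change of 0.023 against 0.00059 over all 12484 genes tested. With limma 0 passed, and 3 of the 77 (3.9%) had an unadjusted p under 0.05, beside 4.69% of all genes. Upstream, of 16 Gq alpha subunits and phospholipase C genes, 8 had a change above 0 (median 0.0030). The smallest p in that list were those of Plch2, a phospholipase C (log2 change -0.25, limma adjusted p = 0.986), and Plce1 (0.30, limma adjusted p = 0.986). Plch2 read 7292, 6915 and 8402 in wild type and 6446, 6909 and 5697 in knockout, without overlap; its other tested probe set had a log2 change of -0.0049. Among 7 diacylglycerol kinases, which remove the lipid that activates PKC, 5 had a change above 0 (median 0.025), with Dgkz at -0.12 and Dgki at -0.64, the latter with a 95% interval of -1.54 to 0.26.

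Of 11 other diacylglycerol receptors, 7 had a change above 0 (median 0.029), with Chn2, a Rac GTPase-activating protein, at 0.22 and Unc13c, a vesicle priming protein, at 0.21. Of 10 genes for maturation and turnover of PKC, 4 had a change above 0 (median -0.034). The phosphatases Phlpp2 and Phlpp1, which dephosphorylate PKC, had the smallest p there, at 0.21 and -0.16. Of 14 anchoring and polarity partners 7 had a change above 0 (median -0.0088), with the scaffolds Akap9 at 0.19 and Akap12 at 0.24. Of 13 substrates, 8 had a change above 0 (median 0.025). The neuronal substrate Nrgn, neurogranin, read 63308, 52355 and 64775 in wild type and 63714, 50238 and 43549 in knockout, with a log2 change of -0.21 (95% interval -0.48 to 0.069), and Add1, a spectrin-binding adducin, had -0.11. Each of these lists held 0 genes at a limma adjusted p under 0.05, and the lowest adjusted p in each was 0.986.

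**Figure D4:**
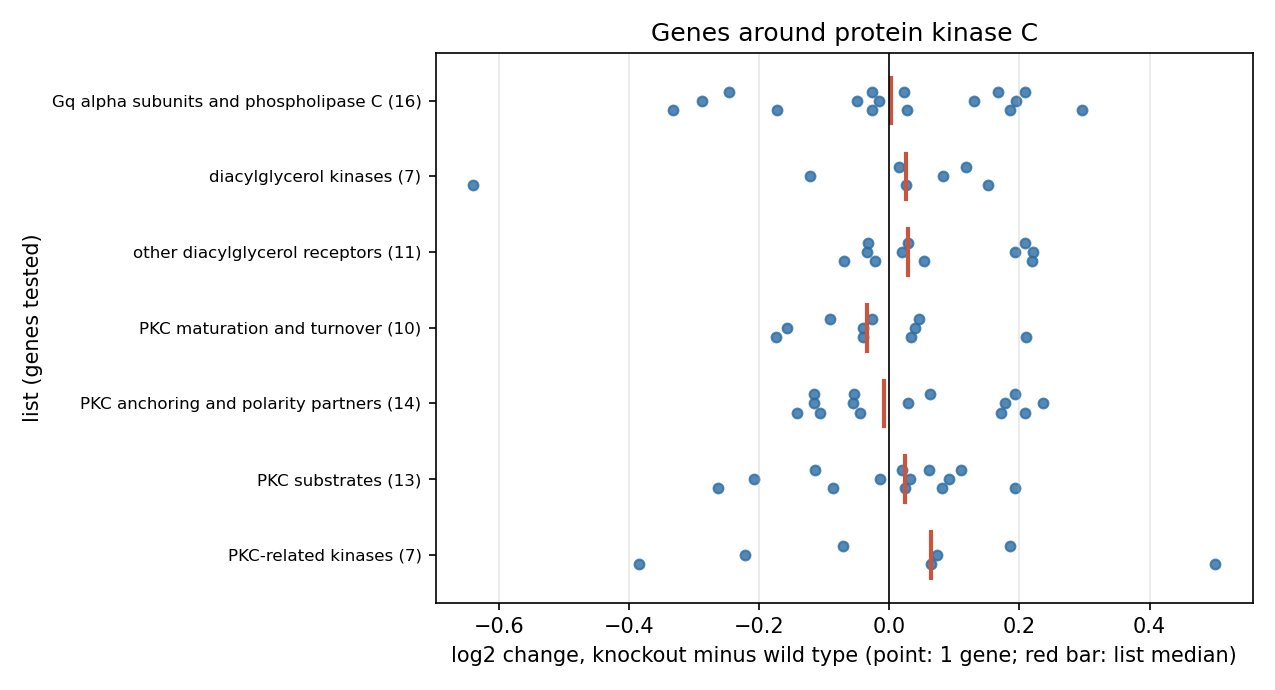
Log2 change (knockout minus wild type) of 77 genes in 7 lists around protein kinase C, 1 point per gene at its brightest tested probe set, with the list median as a red bar; Prkd1 is in 2 lists. List medians lie between -0.034 and 0.064, and the widest points are Dgki (-0.64) and Sgk1 (0.50).

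Among 7 related kinases of the same AGC group, 4 had a change above 0 (median 0.064). Akt1, protein kinase B alpha, read 8506, 8178 and 8015 in wild type and 6098, 5774 and 7108 in knockout. These groups do not overlap, and the log2 change was -0.38 (SE 0.098, unadjusted p = 0.00242, limma adjusted p = 0.986). The other 2 tested Akt1 probe sets had log2 changes of -0.077 (6542 to 7001 in wild type, 6015 to 6862 in knockout) and 0.075. Sgk1, a glucocorticoid-responsive kinase, read 21344, 13873 and 14939 in wild type and 27560, 25545 and 17834 in knockout, which overlap (log2 change 0.50, unadjusted p = 0.0156, limma adjusted p = 0.986). One PKC gene outside the 7, Prkcq, which encodes PKC theta, was looked up after the values were seen. Its 1 probe set had a log2 change of 0.22 (95% interval -0.22 to 0.65, limma adjusted p = 0.986).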

How the data were processed

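Total RNA of the hippocampus was measured on 3 wild-type and 3 knockout arrays. The authors deposited 1 linear intensity per probe set and array; how it was summarised is in none of the sources used here. The mean without the upper and lower 2% of the values came to 2500 on all 6 arrays, so the deposited intensities had been brought to 1 level.

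Here values were transformed as log2(intensity + 16), so fold changes of dim probe sets are understated. Left out were 64 control probe sets and, of the rest, the 40% dimmest by mean; 27022 were fitted with limma 3.58.1 in R 4.3.3 (genotype alone in the model, variance prior following intensity, two-sided, Benjamini-Hochberg over all, threshold 0.05). The fit was tested on simulated data. Intervals are 95% from limma's moderated SE. No detection calls were used, and the number of arrays limits the precision.

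The members and lists were chosen with earlier results of these data known. Named genes are the 7 members with all their probe sets, in each pathway list the 2 genes of smallest p, for each leading probe set the 2 with the highest correlation, and Ppp1r1a; Prkcq, the other probe sets of list genes and some list markers were added after values were seen. Gene names follow the platform annotation; all 7 members were found in the RefSeq table of GRCm38.p6. The alternatives changed the pseudocount, the filter, the scaling, the variance prior or the array weights, used the replicate number as a block, left out arrays, or averaged a gene's probe sets.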

Additional observations from a re-analysis of the deposited data

How the results depend on the processing

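The count of PKC probe sets called stayed at 0 in each direction in all 18 alternatives. Their adjusted p-values thus stayed above the threshold in all 319 comparisons, which says nothing of the sign. Signs were less stable: Prkci 1448695_at kept its sign in 11 of 18 alternatives, the fewest of any PKC probe set. The lowest adjusted p of any PKC probe set in any alternative was 0.425 (limma, Prkcz 1418085_at without knockout replicate 1). Over all probe sets, 3 were called; the count was 1 without an intensity trend, 8 with the replicate number as a block, 3 to 6 leaving out 1 array (6 without knockout replicate 1) and 13 without replicate 1 of both groups. No label pairs the samples of one number, whose deviations from their group means had correlations of 0.23, 0.050 and 0.088; the replicate block called 0 PKC probe sets.

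List medians moved by more than the spread between arrays in 17 of 133 comparisons, and the cause was not tested. For Gq and phospholipase C genes the median was -0.017 without a filter, 0.025 without the 60% dimmest probe sets, -0.020 with arrays centred on their medians, -0.021 to 0.038 leaving out 1 array, -0.079 without replicate 1 of both groups and -0.027 for the mean of probe sets. Without replicate 1 of both groups it was 0.095 for diacylglycerol kinases, 0.11 for other diacylglycerol receptors and -0.040 for substrates. With the mean of probe sets it was -0.045 for diacylglycerol kinases, -0.072 for maturation genes, -0.064 for substrates and -0.071 for related kinases. Leaving out 1 array it ran from -0.0012 to 0.13 for other diacylglycerol receptors (0.13 without knockout replicate 1), from -0.072 to -0.013 for maturation genes, from -0.023 to 0.055 for substrates and from -0.024 (without knockout replicate 2) to 0.17 (without knockout replicate 1) for related kinases. The median SE was 0.10 over PKC probe sets and 0.18 over all.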
